A study of Mus musculus with 9 samples.

Results

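The genes described here make nucleotides, one-carbon units and polyamines: 39 listed mouse genes for the purine ring, the AMP and GMP branches, pyrimidines, folate carriers, serine, the methionine cycle, deoxynucleotides, salvage and polyamines. They were chosen by name, with earlier results of these data known. Of the 39, 34 were measured among 19938 genes tested, and Impdh2, Sms, Amd1, Mat2a and Ahcy had no probe set assigned to that symbol alone and were not analysed here. The methionine cycle genes listed, Mat2a and Ahcy, are both among these, so that branch was not described.

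Dividing cells build purines on ribose phosphate, carry one-carbon units on folate between mitochondria and cytosol, and take most of those units from serine. Pyrimidines are assembled as a free ring first, deoxynucleotides are then made by reduction, and salvage enzymes recycle bases. Polyamines are small cations made from ornithine and needed for translation and growth. Many of these genes are textbook targets of the transcription factor Myc, and their products are known for supporting proliferation of marrow progenitors.

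The study measured total RNA on whole-transcript Affymetrix arrays from 3 sorted populations of mouse bone marrow, with 3 arrays each. The Zbtb46- CDPs are common dendritic cell progenitors, which give rise to dendritic cells, without the reporter. The Zbtb46+ CDPs carry it, and the Pre-CD8 DCs are the labels' name for a precursor of CD8 dendritic cells, the conventional type 1 (cDC1) lineage. All 9 samples came from heterozygous Zbtb46-GFP reporter mice, a reporter for a transcription factor of conventional dendritic cells, so every group carried the same allele and no group lacked it. Marrow came from pelvis, tibia and femur and was sorted on a FACSAria Fusion. No treatment, age, strain, sort gate or time is given in the sources used here. The labels do not say whether the 3 samples of a group came from separate mice or pools, so p-values measure only the spread between these samples, and 3 arrays a group limit the precision. The comparisons ask how the genes differ between the Zbtb46- and Zbtb46+ CDPs (the first step below), between Zbtb46+ CDPs and Pre-CD8 DCs (the second step), and between the ends of that series. The order is that of the labels' populations, not a time course, and neighbouring comparisons share arrays.

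Levels below are log2 array signals, given as mean ± SD over 3 arrays, and differences are log2 differences. A single limma fit of all 9 arrays was used, and a gene counted as changed where its p, adjusted by Benjamini and Hochberg's method across the 19938 genes, lay below 0.05. Probes differ in brightness, so no gene's level is ranked against another's. Array medians lay between 110.2 and 118.0 on the linear scale, and the median log2 signal over all probe sets was 6.82. As bulk samples, fewer cells of a type and less RNA per cell cannot be told apart.

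The labels were set against marker genes. Flt3, a progenitor receptor, was bright in all groups at 11.19 ± 0.06, 10.70 ± 0.25 and 11.29 ± 0.08, while Csf1r, a myeloid receptor, was at 11.22 ± 0.10 and 10.31 ± 0.10 in the CDPs and 7.56 ± 0.11 in Pre-CD8 DCs. The 5 genes of a progenitor marker list, which includes both, summed to 7573 to 7902, 6096 to 8591 and 8009 to 8177 in linear signal. At the second step 2 of the 5 rose and 1 fell, against 4.76% and 1.86% of all genes. The summed linear signal of a cDC1 marker list was 11270 to 12257 in Zbtb46- CDPs, 18344 to 20713 in Zbtb46+ CDPs and 27767 to 27932 in Pre-CD8 DCs. Of the lists of other cell types, 7 B cell genes of 8 summed to 903 to 1005, 718 to 813 and 681 to 699 in the 3 populations, and 6 plasmacytoid dendritic cell genes of 7 to 4246 to 5393, 3422 to 3653 and 3619 to 4089. Both sums were thus lower without overlap at the first step, as were most of the synthesis genes below. There 1 gene of each list was called lower, against 10.6% of all genes, and 1 gene is too few to read against that share. The sums of 3 red cell genes of 7 were 203 to 219, 202 to 229 and 198 to 209. The sums of 6 monocyte genes of 8 were 4509 to 4642, 4518 to 5730 and 5332 to 6143, and those of 6 T and NK cell genes 497 to 825, 427 to 795 and 323 to 351. A list of 12 neutrophil genes, all measured, summed to 27887 to 32600 in Zbtb46- CDPs, 8108 to 32510 in Zbtb46+ CDPs and 1175 to 2173 in Pre-CD8 DCs. The female transcript Xist was low in replicate 1 of both CDP groups, at 5.59 and 5.30, against 11.85 to 12.29 in the other arrays. Those 2 arrays also stood apart in the late neutrophil granule gene Ngp, at 10.48 and 12.36 against 5.39 to 6.84 in the other CDP arrays. Calls that change without these 2 arrays are given with and without them below, and the part of RNA from neutrophils, B cells or plasmacytoid dendritic cells in the results was not tested. That fit called more of all genes too, 22.5% at the first step and 20.4% at the second.

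Most of the set was lower in Zbtb46+ than in Zbtb46- CDPs, and 1 of its genes was called between Zbtb46+ CDPs and Pre-CD8 DCs. At the first step 24 of the 34 measured genes fell and none rose by limma, with a median log2 difference of -0.77 and a range from -1.49 to 0.27. Over all genes tested 14.4% were called, of which 10.6% fell and 3.85% rose as shares of all genes, and the median was 0.04. In the same fit 29 of the 34 had an unadjusted p under 0.05, as did 5815 of all 19938 genes. All 3 Zbtb46+ arrays lay below all 3 Zbtb46- arrays for 28 genes, against 17.4% of all genes, and above them for 2, against 11.8% (29.3% of all genes in either direction). Without the arrays low in Xist, 27 fell and the median was -0.70. Over all genes the split of calls moved with the scaling, from 768 rises and 2105 falls to 1216 and 1572 after quantile normalization, where 20 of the 34 genes fell, Mthfd2 rose and the median was -0.63.

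At the second step 1 of the 34 genes fell, Mthfd1l, and none rose, against 1.86% and 4.76% of all genes, 6.62% in all, and a single gene is too few to read against these shares. The median was -0.04, with 16 differences above 0 and 18 below, and 8 genes had an unadjusted p under 0.05, as did 3798 of all genes. The arrays of the groups did not overlap for 12 of the 34 genes, 10 lower and 2 higher, against 22.9% of all genes (10.3% lower and 12.6% higher). Over all genes 949 rose and 370 fell. After quantile normalization 749 rose and 654 fell of all 19938 genes, 7.04% in either direction. There 7 of the 34 genes fell and none rose. Without the arrays low in Xist 5 of the 34 fell and Srm rose, against 20.4% of all genes called. From Zbtb46- CDPs to Pre-CD8 DCs 25 genes fell and Mthfd2 rose, against 9.23% and 6.43% of all genes (15.7% in all), with a median of -0.73 for the set and 0.01 for all genes. The distribution of differences shows this shift at the first step and across the series and medians close together at the second.

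**Figure D1:**
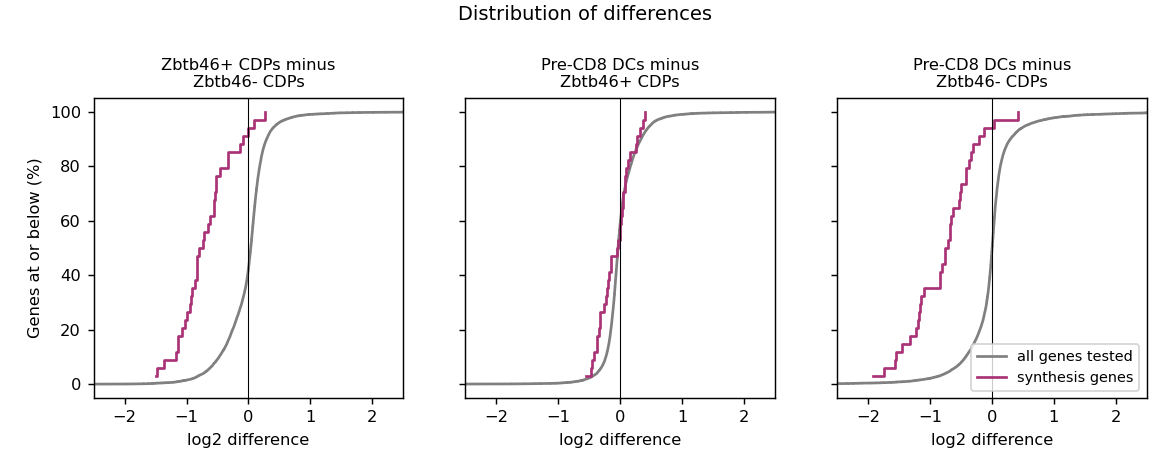
Cumulative share (%) of genes at or below each log2 difference in the 3 comparisons, for the 34 synthesis genes and all 19938 genes tested. The synthesis genes lie to the left in the left and right panels (medians -0.77 and -0.73) and close to all genes in the middle one (median -0.04).

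Promoter sequences are shown for 2 members because the hexamer CACGTG, the E-box that Myc and related factors bind, lies close to their starts. The motif reads the same on both strands and was the only one searched. It was found in the 250 bases before the start of 3 of 30 members with a promoter in the RefSeq table (10.0%; Paics, Atic and Nme1), against 8.1% of 15563 measured genes with a promoter and 6.0% of all 32851 promoters. The share in the members is thus close to that of other genes, and a match is only a description of letters. The windows below are the 100 bases before the start on the gene's own strand, build GRCm38.p6, with the E-box in capitals. Atic lies at chr1:71557056-71557155 on the plus strand and Nme1 at chr11:93968273-93968372 on the minus strand.
Atic: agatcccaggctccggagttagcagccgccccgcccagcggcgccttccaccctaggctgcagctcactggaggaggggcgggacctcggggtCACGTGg
Nme1: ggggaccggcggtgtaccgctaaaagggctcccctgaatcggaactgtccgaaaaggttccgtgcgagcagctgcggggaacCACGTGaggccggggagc
The first base of the motif stands 7 bases before the start in Atic and 18 before the start shown for Nme1. RefSeq gives Nme1 a further start, not shown, with a CACGTG 29 bases before it. Both genes fell at the first step, as most of the set did, and Paics, with the same hexamer, did not pass.

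The purine ring genes fell almost as a block: 7 of 8 were called lower at the first step, against 10.6% of all genes. None was called at the second, against 6.62% of all genes, and 8 genes are too few to read against that share. After quantile normalization 2 of them were called lower at the second step, against 654 of all 19938 genes called lower. Ppat encodes the committed step of purine synthesis. Its log2 signal was 10.68, 10.48 and 10.50 in Zbtb46- CDPs, 9.44, 9.38 and 9.45 in Zbtb46+ CDPs, and 9.20, 8.94 and 9.19 in Pre-CD8 DCs. Every Zbtb46+ array lay over 1 log2 unit below every Zbtb46- array, and the Pre-CD8 DC arrays lay lower still. The mean fell from 10.55 ± 0.11 to 9.42 ± 0.04, a 2.19-fold lower signal (adjusted p = 0.000129 by limma), and the second step of -0.32 did not pass (adjusted p = 0.082; 0.0497 without the arrays low in Xist; range 0.0215 to 0.238).

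Gart carries several steps of the ring in a single polypeptide. It read 11.02, 10.94 and 10.92, then 10.23, 9.93 and 10.10, then 9.79, 9.93 and 9.86, and fell by 0.87 at the first step (adjusted p = 0.000329 by limma). The Pre-CD8 DC arrays lay at or below the lowest Zbtb46+ array. The second difference of -0.23 did not pass (adjusted p = 0.185 by limma), but did after quantile normalization (0.0219). Adsl, adenylosuccinate lyase, which serves both the ring and the AMP branch, had its lowest group in the middle. Its arrays read 9.96, 9.82 and 9.84, then 8.69, 8.73 and 9.12, then 9.22, 9.19 and 9.22. It fell by 1.03 at the first step (adjusted p = 0.000511), and the difference of 0.37 at the second did not pass (adjusted p = 0.0965), though the arrays of those groups did not overlap. Without replicate 3 of the Zbtb46+ CDPs that second difference was 0.50 (adjusted p = 0.00991; range 0.00991 to 0.330 over all alternatives).

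The synthetases of phosphoribosyl pyrophosphate, the activated ribose of all nucleotide synthesis, are Prps1 and Prps2, both X-linked. Prps1 fell from 10.99 ± 0.33 to 10.06 ± 0.19 (adjusted p = 0.00509 by limma) and Prps2 from 9.29 ± 0.12 to 8.46 ± 0.16 (adjusted p = 0.00148). Both were lower in Pre-CD8 DCs too, and for Prps1 that fall of 0.68 (adjusted p = 0.0188) was lost without Zbtb46- replicate 2 (0.0534) or Pre-CD8 DC replicate 1 (0.0662) or 3 (0.0737), within 0.00628 to 0.0737 over the alternatives. The log2 signal of Prps1 over Prps2 was 1.70 ± 0.24, 1.59 ± 0.35 and 1.84 ± 0.18, and the groups overlapped. Pfas, which adds the ring's second amide nitrogen, fell from 9.31 ± 0.14 to 8.37 ± 0.31 (adjusted p = 0.00589) and was at 7.99 ± 0.23 in Pre-CD8 DCs. Atic, which closes the ring, fell from 10.55 ± 0.09 to 9.91 ± 0.16 (adjusted p = 0.00408) and stood at 9.92 ± 0.15 in Pre-CD8 DCs.

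Paics, a carboxylase and ligase of the same ring, was the purine gene that did not pass. Its arrays read 10.49, 10.82 and 10.86, then 9.73, 10.39 and 10.38, and its difference was -0.56 (adjusted p = 0.0682 by limma). Replicate 1 was the lowest array in both CDP groups, and with the replicate number as a block the adjusted p was 0.0258, and without the arrays low in Xist 0.00514 (range 0.00387 to 0.197). Its difference of -0.52 across the series did not pass either (adjusted p = 0.0898), but did without Zbtb46+ replicate 1 (0.00619) and without the arrays low in Xist (0.000448; range 3.66e-05 to 0.264). Ppat and Paics are neighbours on chromosome 5, on opposite strands with overlapping 5′ ends, and only Ppat passed.

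In the branches from IMP to AMP and GMP, 2 of 3 measured genes fell at the first step, against 10.6% of all genes. Gmps, GMP synthetase, read 10.05, 9.89 and 10.04 in Zbtb46- CDPs, 9.15, 9.27 and 9.14 in Zbtb46+ CDPs and 9.26, 9.09 and 9.36 in Pre-CD8 DCs. The first group lay apart from both others, which overlapped. Its fall of 0.80 had an adjusted p of 0.00058 by limma.

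Adss, the AMP branch's synthetase, fell by 0.62 (adjusted p = 0.0389 by limma), from 10.38 ± 0.04 to 9.76 ± 0.41. Its Zbtb46+ arrays read 9.29, 9.94 and 10.03, so replicate 1 lay well below the others. That call held in 10 of 19 alternatives, with adjusted p from 0.00336 to 0.122. It was lost without any 1 of the Zbtb46- arrays (0.0834 to 0.118), without Zbtb46+ replicate 2 (0.0502) and without any 1 of the Pre-CD8 DC arrays (0.0607 to 0.0671). Its difference of -0.53 across the series did not pass (adjusted p = 0.0665), but did without Zbtb46+ replicate 1 (0.000391) or 3 (0.0499) and without the arrays low in Xist (0.000993), within 6.77e-05 to 0.186.

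Impdh1, an isoform of IMP dehydrogenase, lay near the table's median at 7.49 ± 0.24, 6.96 ± 0.24 and 6.79 ± 0.17. Its first difference of -0.53 did not pass (adjusted p = 0.0558; 0.00619 with the replicate block), and its fall of 0.71 across the series did (adjusted p = 0.0145), except without Pre-CD8 DC replicate 3 (0.0660). The first difference passed without Zbtb46+ replicate 1 (0.0122) and without the arrays low in Xist (0.0169), within 0.00598 to 0.182 over the alternatives.

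The pyrimidine genes moved the same way, with 4 of 5 lower at the first step and all 5 lower across the series. Of all genes 10.6% and 9.23% were called lower there. After quantile normalization 3 of the 5 were called lower at the first step, against 1572 of all 19938 genes. After median centring 4 were called lower across the series, against 1584 of all genes. Umps, which completes UMP, read 9.94, 9.63 and 9.69, then 8.61, 8.67 and 8.75, then 8.50, 8.58 and 8.50. Both later groups lay about 1 log2 unit below the first. It fell by 1.08, 2.11-fold, at the first step (adjusted p = 0.000149 by limma), and the second difference of -0.15 did not pass (adjusted p = 0.441).

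Cad, the multifunctional enzyme that starts the ring, read 10.19, 10.05 and 9.99, then 9.71, 9.01 and 9.03, then 8.97, 8.88 and 8.90. Zbtb46+ replicate 1 lay between the first group and its own partners. Its fall of 0.83 passed (adjusted p = 0.0115 by limma), as did the fall of 1.16 across the series (adjusted p = 0.00147). Dhodh, the mitochondrial dehydrogenase of the pathway, fell from 8.16 ± 0.12 to 7.61 ± 0.20 (adjusted p = 0.0145) and was at 7.74 ± 0.13 in Pre-CD8 DCs. The Dhodh call at the first step was lost without Zbtb46- replicate 1 (0.0578) or replicate 3 (0.0590), and ranged from 0.000573 to 0.0590 over the alternatives. Across the series it passed at 0.04 in the full fit and in 11 of 19 alternatives (0.00027 to 0.142), and was lost without Zbtb46- replicate 1 or 3, Zbtb46+ replicate 2 or any Pre-CD8 DC array.

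CTP synthase has a pair of genes. Ctps2, which is X-linked, fell from 9.63 ± 0.13 to 9.10 ± 0.16 (adjusted p = 0.00707 by limma; 0.0536 after quantile normalization, the only alternative that ended the call), and Ctps, from 8.55 ± 0.32 to 8.10 ± 0.07, did not pass (adjusted p = 0.0605; 0.0449 with the replicate block). Ctps passed without Zbtb46- replicate 2 (0.0343), Zbtb46+ replicate 1 (0.0474) or the arrays low in Xist (0.0151), within a range of 0.0151 to 0.154 over all alternatives. Both were lower in Pre-CD8 DCs than in Zbtb46- CDPs (adjusted p = 0.0102 for Ctps and 0.00781 for Ctps2).

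**Figure D2:**
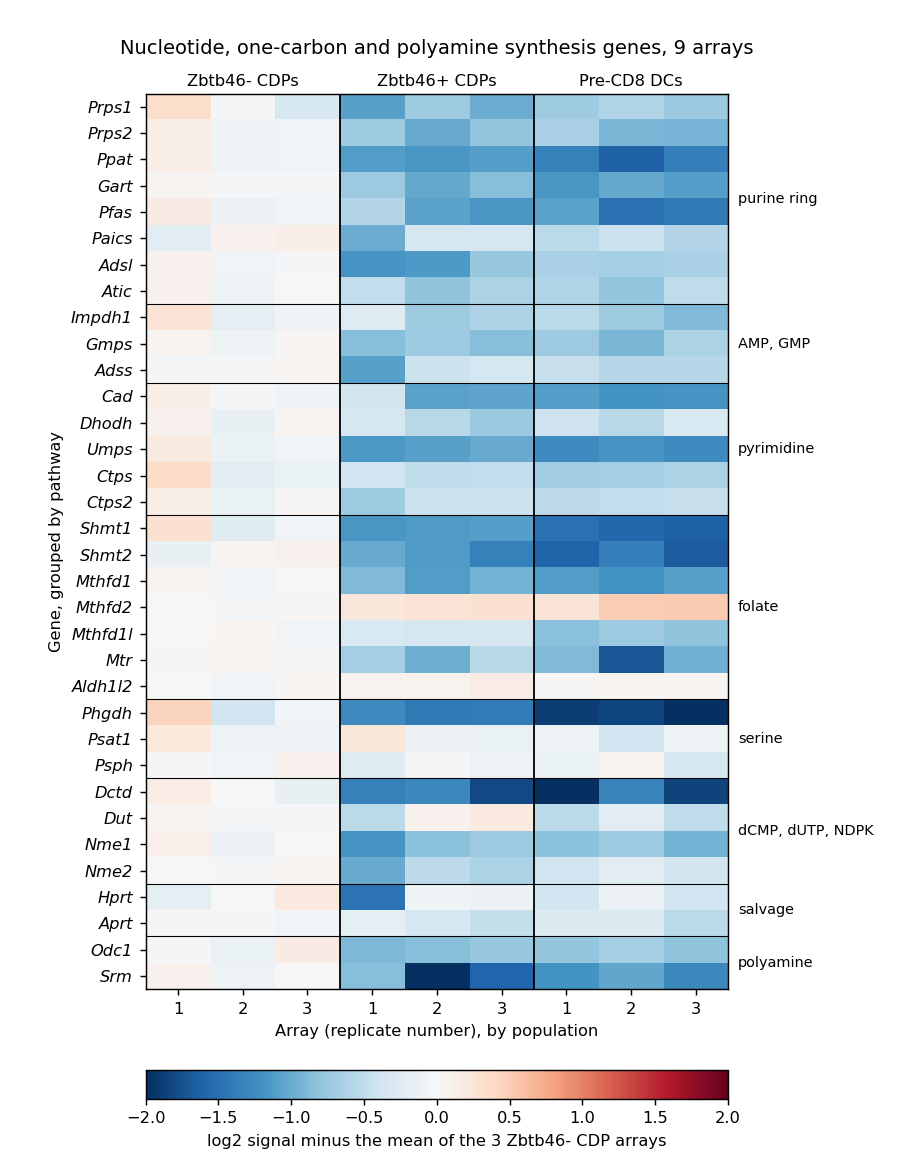
Heat map of the 34 measured genes (rows, by pathway) on the 9 arrays (columns, by population), coloured by log2 signal minus the gene's mean over the 3 Zbtb46- CDP arrays, from -2 to 2. Blue fills most of the Zbtb46+ CDP and Pre-CD8 DC columns, Mthfd2 is the row coloured the opposite way, and the serine genes Psat1 and Psph stay near 0.

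Of the 7 folate genes measured, 5 fell at the first step, against 10.6% of all genes. Mthfd1l fell at both steps, and Mthfd2 was higher in Pre-CD8 DCs than in Zbtb46- CDPs. After quantile normalization 4 of the 7 were called lower at the second step, against 654 of all 19938 genes. Shmt2 is the mitochondrial hydroxymethyltransferase that takes a one-carbon unit from serine. It read 11.27, 11.47 and 11.50 in Zbtb46- CDPs, 10.40, 10.28 and 10.06 in Zbtb46+ CDPs and 9.82, 10.04 and 9.75 in Pre-CD8 DCs. The groups did not overlap at either step. It fell by 1.17, 2.24-fold, at the first step (adjusted p = 0.000324 by limma) and the second difference of -0.38 did not pass (adjusted p = 0.0993). That second difference did pass after quantile normalization (0.0415) and with array weights (0.0488).

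Shmt1, the cytosolic enzyme, read 9.20, 8.65 and 8.84, then 7.73, 7.76 and 7.80, then 7.41, 7.32 and 7.29. It fell by 1.13 (adjusted p = 0.000553 by limma) and the groups again stood apart at each step. The second difference of -0.43 did not pass in the full fit (adjusted p = 0.0859) and did without Zbtb46- replicate 1 (0.0147) and without the arrays low in Xist (0.00838), with a range of 0.00838 to 0.244 over the alternatives. The log2 signal of Shmt2 over Shmt1 was 2.52 ± 0.40, 2.48 ± 0.21 and 2.53 ± 0.16, and no shift between the pair was detectable (exact two-sided permutation test of group means, p = 0.9, 0.9 and 1 for the 3 comparisons, where 0.1 is the smallest possible).

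Mthfd1 is the cytosolic trifunctional enzyme that loads and interconverts folate units. It read 10.13, 10.02 and 10.07, then 9.19, 8.95 and 9.12, then 8.95, 8.86 and 8.98. It fell by 0.99 at the first step (adjusted p = 0.000131 by limma). There was no call at the second (adjusted p = 0.363), except after quantile normalization, where it was lower (0.0412). The later groups overlapped each other and not the first.

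Mthfd1l makes formate in the mitochondrion and feeds it to the cytosol. It read 9.40, 9.43 and 9.34, then 9.09, 9.05 and 9.05, then 8.55, 8.66 and 8.58. The populations formed 3 separate steps with little spread inside each. It fell by 0.32 at the first step (SE 0.06, adjusted p = 0.00947 by limma) and by 0.47 at the second (SE 0.06, adjusted p = 0.00293), and was the only member called at the second. The second call held in all 19 alternatives and the first in 18, the exception being quantile normalization (adjusted p = 0.190).

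Against its cytosolic relative Mthfd1, the log2 signal of Mthfd1l was -0.68 ± 0.08 in Zbtb46- CDPs, -0.02 ± 0.11 in Zbtb46+ CDPs and -0.34 ± 0.11 in Pre-CD8 DCs. The arrays of the groups did not overlap in any comparison (exact permutation p = 0.1 each, the smallest that 3 against 3 can give). These ratios compare changes only, since probe brightness sets their level.

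Mthfd2, the mitochondrial dehydrogenase and cyclohydrolase upstream of Mthfd1l, went the other way. It read 8.55, 8.51 and 8.56, then 8.76, 8.82 and 8.84, then 8.79, 9.05 and 9.06. The first group lay below both others, which overlapped. It rose by 0.43 across the series (adjusted p = 0.00702 by limma; called in all 19 alternatives). Its first difference of 0.27 did not pass (adjusted p = 0.0624; range 0.0241 to 0.143), though it did without Zbtb46+ replicate 1 (0.0446) or Pre-CD8 DC replicate 1 (0.0371).

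Mtr, methionine synthase, which returns folate from its methyl form, read 8.56, 8.65 and 8.57, then 7.91, 7.62 and 8.04, then 7.70, 6.88 and 7.63. It fell by 0.74 at the first step (adjusted p = 0.0426 by limma) and by 1.19 across the series (adjusted p = 0.00364), with Pre-CD8 DC replicate 2 well below its partners. The first call held in 10 of 19 alternatives (adjusted p 0.00462 to 0.139). It was lost without any Zbtb46- array (0.102 to 0.110), Zbtb46+ replicate 2 (0.139) or 3 (0.0573), or Pre-CD8 DC replicate 3 (0.0575), and without the arrays low in Xist (0.0813). Aldh1l2, a mitochondrial folate dehydrogenase, was dim in all groups at 5.49 ± 0.05, 5.59 ± 0.05 and 5.53 ± 0.01, and passed no test.

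**Figure D3:**
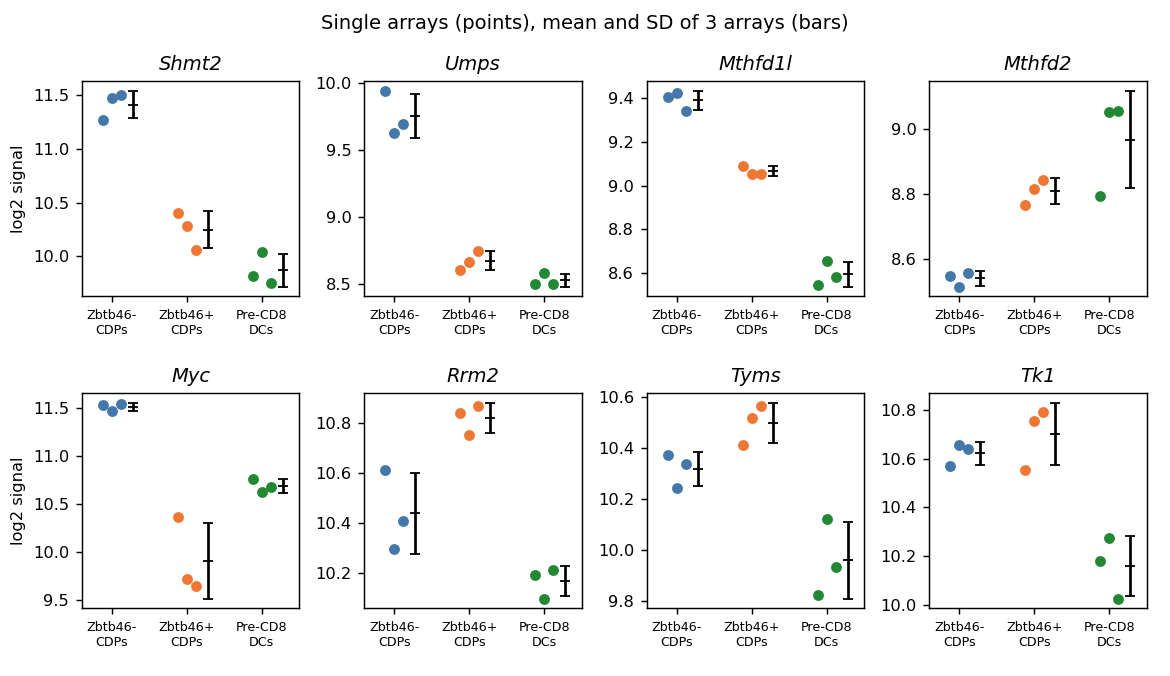
Log2 signal on each array (points) with the mean and SD of 3 arrays (bars) for 8 genes in the 3 populations; each panel has its own axis, which does not start at 0. Shmt2 and Umps drop at the first step, Mthfd1l drops at both, Mthfd2 climbs from 8.54 to 8.97, Myc is lowest in Zbtb46+ CDPs, and Rrm2, Tyms and Tk1 are lowest in Pre-CD8 DCs.

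Of the serine genes, 1 of 3 fell at the first step, against 10.6% of all genes, and 3 genes are too few to read against that share. Phgdh, the first enzyme of serine synthesis, read 10.33, 9.49 and 9.82 in Zbtb46- CDPs, 8.60, 8.46 and 8.47 in Zbtb46+ CDPs and 7.99, 8.04 and 7.86 in Pre-CD8 DCs. All 3 groups stood apart, and the Zbtb46- arrays had the widest spread. It fell by 1.37, 2.58-fold, at the first step (adjusted p = 0.00129 by limma) and by 1.92, 3.77-fold, across the series (adjusted p = 8.77e-05), the largest fall of the set. Its second difference of -0.55 did not pass (adjusted p = 0.119; range 0.0177 to 0.321) and did without Zbtb46- replicate 1 (0.0196) and without the arrays low in Xist (0.0177).

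The enzymes that follow Phgdh in the same short pathway did not pass in any comparison. Psat1 was at 8.38 ± 0.18, 8.37 ± 0.20 and 8.18 ± 0.16, and Psph at 8.77 ± 0.07, 8.64 ± 0.11 and 8.64 ± 0.19. Their first differences were -0.01 and -0.13, within the spread between arrays (adjusted p = 0.976 and 0.453 by limma).

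In the deoxynucleotide and nucleoside diphosphate kinase genes, 3 of 4 fell at the first step, against 10.6% of all genes. Dctd, dCMP deaminase, which feeds thymidylate synthesis, read 10.01, 9.87 and 9.73, then 8.51, 8.57 and 8.07, then 7.81, 8.55 and 8.02. The later groups overlapped and lay over 1 unit below the first. It fell by 1.48, 2.80-fold, at the first step (adjusted p = 0.00145 by limma). Dut, the dUTPase that protects DNA from uracil, read 9.29, 9.20 and 9.19, then 8.68, 9.32 and 9.42, then 8.69, 9.01 and 8.71. Zbtb46+ replicate 1 lay below its partners. Its second difference was -0.34 and did not pass with that array (adjusted p = 0.357) and was -0.57 and did without it (adjusted p = 0.0102, and 0.0104 without both arrays low in Xist; range 0.0102 to 0.628 over the alternatives). Its difference across the series, -0.42, likewise passed only without that array among the single arrays left out (adjusted p = 0.179 with it, 0.0111 without it and 0.0339 without both arrays low in Xist; range 0.00105 to 0.422).

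Nme1 and Nme2 encode the main kinases that turn nucleoside diphosphates into triphosphates and are neighbours on chromosome 11, on the same strand. They are close relatives in sequence, so probes may share signal, and their values are uncertain to that extent. Nme1 read 11.37, 11.15 and 11.27, then 10.09, 10.44 and 10.53, then 10.44, 10.53 and 10.32, a fall of 0.91 at the first step (adjusted p = 0.00142 by limma). Nme2 read 8.94, 8.91 and 8.98, then 7.93, 8.42 and 8.30, then 8.54, 8.72 and 8.57, a fall of 0.72 (adjusted p = 0.00444). The Pre-CD8 DC arrays of Nme2 lay above all Zbtb46+ arrays, and those of Nme1 overlapped them. Nme2's second difference of 0.39 did not pass (adjusted p = 0.0991), nor did its difference of -0.33 across the series (adjusted p = 0.117), which passed without Zbtb46+ replicate 1 (0.00996) and without the arrays low in Xist (0.0210; range 0.000278 to 0.335). The log2 signal of Nme1 over Nme2 was 2.32 ± 0.10, 2.14 ± 0.11 and 1.82 ± 0.07 in order, with no overlap between groups (exact permutation p = 0.1 in each comparison, the smallest possible).

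Of the 2 salvage genes, neither passed at the first step, where 14.4% of all genes were called. Hprt, which recycles hypoxanthine and guanine and is X-linked, read 10.02, 10.21 and 10.40 in Zbtb46- CDPs, 8.73, 10.12 and 10.10 in Zbtb46+ CDPs and 9.82, 10.10 and 9.82 in Pre-CD8 DCs. The single low array, Zbtb46+ replicate 1, set its difference of -0.56 (adjusted p = 0.288 by limma), which was -0.10 without that array (adjusted p = 0.572). Across the series its difference of -0.30 did not pass (adjusted p = 0.718), but did without the arrays low in Xist (-0.39, adjusted p = 0.0350; range 0.00670 to 0.879). Aprt, which recycles adenine, was at 8.34 ± 0.05, 8.01 ± 0.14 and 7.98 ± 0.15. Its first difference of -0.34 did not pass (adjusted p = 0.0542; 0.0225 with the replicate block), but did without Zbtb46+ replicate 1 (0.0168) or Pre-CD8 DC replicate 3 (0.0432), and without the arrays low in Xist (0.0374), within 0.0129 to 0.280. The fall of 0.36 across the series did pass (adjusted p = 0.0374), in 10 of 19 alternatives (0.00348 to 0.130). Leaving out any single array other than Zbtb46+ replicate 1 or 3 ended that call, with adjusted p from 0.0558 to 0.130.

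Both measured polyamine genes fell at the first step, against 10.6% of all genes. Odc1, ornithine decarboxylase, the committed step, read 9.81, 9.70 and 10.00, then 8.93, 8.98 and 9.08, then 9.06, 9.15 and 9.03. The later groups overlapped each other, and every array of theirs lay below the first group. Its fall of 0.84 had an adjusted p of 0.000498 by limma. Odc1 was the only member with a further probe set, which fell by 1.43 at the first step (adjusted p = 0.0156) from 9.34 ± 0.19 to 7.91 ± 0.77. Across the series that probe set did not pass (-0.97, adjusted p = 0.0747), where the one used here fell by 0.76 (adjusted p = 0.000398).

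Srm, spermidine synthase, read 10.78, 10.58 and 10.69, then 9.84, 8.65 and 9.10, then 9.49, 9.64 and 9.39. Its Zbtb46+ arrays spread over more than 1 unit, around the Pre-CD8 DC values. The fall of 1.49, 2.81-fold, at the first step passed (adjusted p = 0.00414 by limma). It and Dctd had the largest falls of the set there, and their order changed when some single arrays were left out. Its second difference of 0.31 did not pass (adjusted p = 0.542; range 0.0193 to 0.953). It was 0.63 without Zbtb46+ replicate 1 (adjusted p = 0.0195) and 0.63 without both arrays low in Xist (adjusted p = 0.0193).

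**Figure D4:**
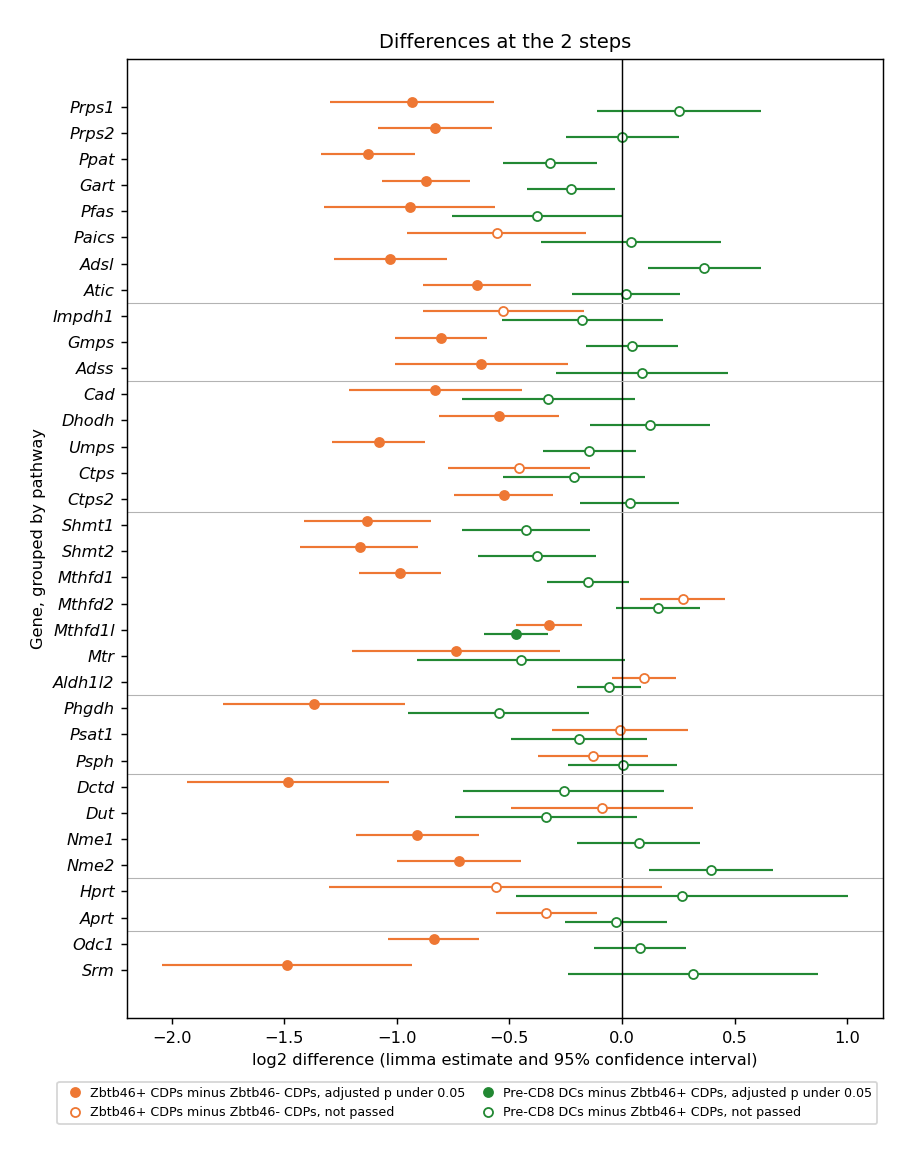
Log2 differences of the 34 genes at the first (orange) and second step (green), with 95% confidence intervals from limma; filled points passed an adjusted p of 0.05. The 24 filled orange points all lie left of 0, and Mthfd1l holds the only filled green point.

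The contrast between the steps was tested directly, as the second difference minus the first. A positive value means that the drop slowed or turned. It was positive and called in 13 of 34 genes and negative in none by limma, with 20 at an unadjusted p under 0.05 (4659 of all genes), against 6.26% positive and 1.36% negative of all genes (7.63% in all). The set's median was 0.69 and that of all genes -0.06. Both steps share the Zbtb46+ CDP arrays, so an error in those arrays enters both with opposite sign. The largest called values were those of Srm (1.80, adjusted p = 0.0361), Adsl (1.39, adjusted p = 0.00481), Prps1 (1.19, adjusted p = 0.0357) and Nme2 (1.12, adjusted p = 0.0156). The others were Prps2, Ppat, Gart, Gmps, Umps, Shmt2, Mthfd1, Nme1 and Odc1.

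Adsl, Umps and Mthfd1 were called in all 18 alternatives of this test, Gmps, Nme2 and Odc1 in 17, Ppat in 16, Nme1 in 12, Srm in 10, Prps1 and Prps2 in 9 each, and Gart and Shmt2 in 7. With the replicate number as a block 13 were again called, but Gart (adjusted p = 0.0506 by limma) and Shmt2 (0.0516) were not, and Atic (0.0260) and Dctd (0.0412) were. The count fell to 6 without Zbtb46+ replicate 2, to 7 without Pre-CD8 DC replicate 1 or 2, and to 8 without Zbtb46- replicate 1 or 3, Zbtb46+ replicate 3 or Pre-CD8 DC replicate 3. It was 4 after quantile normalization against 7.08% of all genes, and 20 without the arrays low in Xist, against 19.9% of all genes. There 19 were positive and Dut was negative, and the further genes called were Pfas, Atic, Cad, Dhodh, Shmt1, Phgdh and Dut. Mthfd1l had a value of -0.15 (adjusted p = 0.447), so its falls at the steps were not shown to differ.

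The wider pathways were read from lists of 101 further genes, of which 92 were measured. At the first step 4 rose and 22 fell, with a median of -0.11, against 3.85% and 10.6% of all genes. At the second 7 rose and 4 fell, with a median of -0.01, against 4.76% and 1.86%. Across the series 7 rose and 21 fell, against 6.43% and 9.23%. The split moved with the scaling, to 8 rises and 14 falls at the first step and 3 and 7 at the second after quantile normalization. Without the arrays low in Xist it was 9 and 26 at the first step and 19 and 12 at the second, where 22.5% and 20.4% of all genes were called.

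At the first step the largest falls among these genes were in Adssl1, a second adenylosuccinate synthetase (-1.50, adjusted p = 0.00408 by limma), Nme4, the mitochondrial diphosphate kinase (-1.32, adjusted p = 0.000317), and Adi1 of methionine salvage (-1.09, adjusted p = 0.000329). The largest rises were in genes that break nucleotides down or convert them. Upb1 of pyrimidine breakdown rose by 1.31 (adjusted p = 0.000782), Ampd3, AMP deaminase, by 1.18 (adjusted p = 0.00307), and Samhd1, which hydrolyses deoxynucleotide triphosphates, by 0.75 (adjusted p = 0.00154). Samhd1 was at 10.31 ± 0.06, 11.06 ± 0.06 and 11.58 ± 0.20. Across the series Upb1, Ampd3 and Samhd1 again had the largest rises (1.49, 1.47 and 1.27), and Adssl1, Ada and Nme4 the largest falls (-2.28, -1.62 and -1.21).

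At the second step the largest rises were in Glrx, a glutaredoxin (1.02, adjusted p = 0.000558 by limma), Sat1, which acetylates polyamines for breakdown or export (0.98, adjusted p = 0.00264), and Uprt, related to uracil salvage (0.77, adjusted p = 0.0323; called in 12 of 19 alternatives). Ada, adenosine deaminase, fell by 0.70 (adjusted p = 0.0377; called in 14 of 19). The other large falls were in genes that make deoxynucleotides for replication: Rrm2, the regulated subunit of ribonucleotide reductase, fell by 0.66 (adjusted p = 0.00335), and Tyms, thymidylate synthase, and Tk1, thymidine kinase, each by 0.54 (adjusted p = 0.00856 each).

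Of the 15 measured deoxynucleotide genes on the list these come from, 2 rose and 2 fell at the first step, against 3.85% and 10.6% of all genes. At the second step 2 rose and 3 fell, against 4.76% and 1.86%. The second difference minus the first was above 0 in 9 and below 0 in 6, with a median of 0.15, so no common order ran through the list. Rrm2, Tyms and Tk1 were named for their falls at the second step, and their levels are given as a description. Rrm2 read 10.62, 10.30 and 10.41, then 10.84, 10.76 and 10.87, then 10.19, 10.10 and 10.21. It was highest in Zbtb46+ CDPs, and the groups did not overlap at either step. It rose by 0.38 at the first step (adjusted p = 0.0219 by limma; called in 15 of 19 alternatives). Tyms was at 10.32 ± 0.07, 10.50 ± 0.08 and 9.96 ± 0.15 and Tk1 at 10.62 ± 0.05, 10.70 ± 0.13 and 10.16 ± 0.12, with no call at the first step (adjusted p = 0.224 and 0.583). The falls of Rrm2, Tyms and Tk1 at the second step held in all 19 alternatives. Rrm1, the reductase's large subunit, was at 10.47 ± 0.05, 9.96 ± 0.49 and 9.60 ± 0.06 and passed only across the series (-0.87, adjusted p = 0.0166; called in 14 of 19).

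For context, 3 further genes were read beside the set. Myc, a growth regulator, read 11.52, 11.46 and 11.54 in Zbtb46- CDPs, 10.36, 9.72 and 9.65 in Zbtb46+ CDPs and 10.76, 10.62 and 10.68 in Pre-CD8 DCs. It was lowest in the middle population, and no groups overlapped. It fell by 1.60 at the first step (adjusted p = 0.00039 by limma) and rose by 0.78 at the second (adjusted p = 0.0243; called in 13 of 19 alternatives). Mki67, a proliferation marker, went the other way at the first step, from 12.02 ± 0.03 to 12.65 ± 0.06 (adjusted p = 0.00069), and was at 12.54 ± 0.10 in Pre-CD8 DCs. Atf4, a regulator of serine and one-carbon genes, was at 9.97 ± 0.18, 9.91 ± 0.31 and 10.21 ± 0.02 and passed no test.

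A list of 13 proliferation genes, 12 measured, had 3 higher and 6 lower at the first step, against 3.85% and 10.6% of all genes. At the second step 6 were lower and none higher, against 1.86% and 4.76%. The list's summed linear signal was 32461 to 33797 in Zbtb46- CDPs, 31399 to 35209 in Zbtb46+ CDPs and 26589 to 27328 in Pre-CD8 DCs. That sum overlapped between the CDP groups, though 9 of the 12 genes were called there in either direction, and was lower in Pre-CD8 DCs. The part of Myc or of cell division in the synthesis genes' differences was not tested.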

How the data were processed

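The authors deposited one table of linear array intensities for 28853 probe sets on 9 arrays, summarised with RMA in Affymetrix Expression Console per the submitters' processing notes. Probe sets were named through GEO's platform annotation: 21789 had a single symbol, 1621 several and 5443 none, and only the first were used. For 999 genes with several probe sets, the brightest was kept, giving 19938 genes. Intensities (7.45 to 20455.6) were log2-transformed without a pseudocount, since they were linear. Already normalized values were not normalized again. RMA evens out arrays, so changes of total RNA per cell are not seen. No pair of arrays was identical.

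Group means were fitted to all 9 arrays with limma 3.58.1 (R 4.3.3; lmFit, eBayes, Benjamini-Hochberg over all genes), after a test on simulated data. Figures used Python 3.11.15 and matplotlib 3.10.9. Same-numbered arrays of the CDP groups deviated together (residual correlations 0.51, 0.42 and 0.36). Differently numbered ones ran from -0.51 to 0.38, the highest for Zbtb46- replicate 3 with Zbtb46+ replicate 2. The numbers, which come from the sample titles, may thus pair those groups, but the labels do not say so. Same-numbered Zbtb46- CDP and Pre-CD8 DC arrays did not deviate together (-0.01, -0.03 and 0.03). Same-numbered Zbtb46+ CDP and Pre-CD8 DC arrays had small positive correlations (0.11, 0.07 and 0.17). Differently numbered ones of those groups ran from -0.11 to 0.02. The fit has no block, and the blocked fit is an alternative. Every measured member is named. Other pathway genes named are the called ones with the 3 largest rises and falls per comparison, plus Myc, Mki67, Atf4 and Tyms. Tk1 ties with Tyms, and Rrm1, Flt3, Csf1r, Xist and Ngp were added by choice. Members and lists were chosen with earlier results of these data known. Alternatives were quantile normalization, median centring, dropping the 30% dimmest genes, averaging probe sets, trended robust moderation, array weights, the replicate block, fits of 2 groups, leaving out arrays low in Xist, log2(value + 16), and leaving out each array. Promoters are RefSeq's (GRCm38.p6).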

Additional observations from a re-analysis of the deposited data

How the results depend on the processing

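No member reversed its direction at a called difference in any alternative. At the first step the number of members called was 21 to 29 of 34 over all alternatives and 21 to 28 when single arrays were left out, with medians of -0.79 to -0.75; 19 of the 24 calls held in all 19 alternatives. Across the series 22 to 32 were called, 22 to 30 with single arrays left out, and 22 of the 26 calls held throughout. At the second step, where 1 member was called, the count was 7 with quantile normalization, 6 with array weights, 6 without the arrays low in Xist, 3 with a fit of only the 2 groups, 2 with the replicate block, and 1 to 3 with single arrays left out. The count for the difference between the steps, 13, was 4 with quantile normalization, 20 without the arrays low in Xist, and 6 to 18 with single arrays left out; these were added after the data were seen. The replicate block gave 28 calls at the first step and 27 across the series. It added Paics, Impdh1, Ctps and Aprt at the first step, Pfas at the second (adjusted p = 0.043 by limma) and Paics across the series (adjusted p = 0.0313), and ended no call in these 3 comparisons. The median of the serine genes at the first step was -0.13 and turned to 0.03 with quantile normalization. With 3 arrays a group and a median residual SD of 0.14, small differences were not detectable, and Aldh1l2 and Impdh1 lie near or below the table's median signal.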
